A study of Mus musculus with 32 samples.

Results

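Endothelial cells line the capillaries that run between muscle fibers, and pericytes wrap them from outside. The capillary content of synaptic and extra-synaptic muscle was followed here through 10 genes chosen by name as markers of these cells: Cdh5, Pecam1, Kdr, Flt1, Tek, Tie1, Vwf, Cldn5, Egfl7 and Rgs5. Of these 10 genes, 9 had a row among the 24952 genes of the count and TPM tables, and Cldn5 was not analysed here. All 9 belonged to the 13990 genes that were tested, a set limited to genes with 1 CPM or more in 8 libraries or more. CPM are a library's counts scaled to the same nominal total. This filter used plain library totals, and the CPM values below use TMM factors unless library totals are named. The samples were regions of the tibialis anterior (TA) muscle cut out by laser-capture microdissection. Neuromuscular junctions, the synapses between motor nerve and muscle fiber, were found with fluorescent α-bungarotoxin, a toxin that binds acetylcholine receptors. The 4 groups were synaptic regions (NMJ) and extra-synaptic regions (xNMJ) of mice aged 10 months (10m NMJ, 10m xNMJ) and 30 months (30m NMJ, 30m xNMJ), with 8 libraries each. All mice were male, wild type C57BL/6JRj animals that lived in single cages on AIN93M diet, for 2 to 3 months in the younger groups and for 16 months in the older ones. Each library pooled many regions and is a mixture of fibers, glia, connective tissue, vessels and blood. In such a mixture, fewer cells of a type and less RNA per cell cannot be told apart. The sources used here do not tie libraries to animals, so that the p-values measure the spread between libraries.

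The endothelial wall depends on a few protein families. VE-cadherin, the product of Cdh5, and PECAM-1, the product of Pecam1, hold neighbouring endothelial cells together. Vascular endothelial growth factor (VEGF) acts on the receptor VEGFR2 (Kdr), while VEGFR1 (Flt1) binds VEGF tightly and signals weakly. Angiopoietins act on TIE2 (Tek), with TIE1 (Tie1) as its partner receptor, and keep mature capillaries quiet. Von Willebrand factor (Vwf) is stored in endothelial cells and tethers platelets, claudin-5 (Cldn5) belongs to tight junctions, and EGFL7 (Egfl7) is a protein that endothelial cells secrete into the vessel wall. Rgs5 encodes a regulator of G-protein signaling and is a common marker of pericytes. In limb muscle, capillaries bring oxygen, glucose and fatty acids to the fibers.

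On the GRCm38 genome with the GENCODE M21 annotation, Cdh5 lies at chr8:104101625-104144511, Pecam1 at chr11:106654217-106750628, Kdr at chr5:75932827-75978458 and Flt1 at chr5:147561604-147726011. Tek lies at chr4:94739289-94874976, Tie1 at chr4:118471191-118490061 and Vwf at chr6:125546774-125686679. Egfl7 lies at chr2:26580014-26593120 and Rgs5 at chr1:169655501-169695813. The start of Cdh5 is overlapped by the antisense gene Gm29682, and the end of Egfl7 by Agpat2 on the opposite strand, and both neighbours were counted as genes of their own. Egfl7 also spans the microRNA gene Mir126a and the gene model Gm20532, which were not analysed here. Since the libraries do not mark strand, reads of such overlaps cannot be told apart, and the values of Cdh5 and Egfl7 carry that uncertainty. No gene overlapped the other 7 measured members.

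Depth and composition of the libraries differed between the regions. Total counts per library ranged from 7080227 to 16516788 in 10m NMJ and from 6703228 to 16422527 in 30m NMJ, but from 4026648 to 10258988 in 10m xNMJ and from 4424672 to 13182475 in 30m xNMJ. On the log10 scale NMJ libraries were deeper at 10 months (exact two-sided permutation test of 8 against 8, p = 0.0093, adjusted p = 0.037 over 4 comparisons). At 30 months the same exact test gave p = 0.029 and an adjusted p of 0.057. A count of 3, taken as the floor of detection, stood for 0.153 to 0.933 CPM depending on the library, which covers counting error only. The 100 most abundant genes of a library took a median of 51.0% of its counts in 10m xNMJ and 54.3% in 30m xNMJ, but 41.4% in 10m NMJ and 40.6% in 30m NMJ. TMM factors, which scale a library by its typical gene rather than by its total, were 0.740 to 0.906 in 10m xNMJ, 0.686 to 1.02 in 30m xNMJ, 1.12 to 1.297 in 10m NMJ and 1.14 to 1.35 in 30m NMJ. On the log2 scale they differed between the regions by 0.56 at 10 months and 0.64 at 30 months (exact permutation p = 0.000155 each, the smallest the test can give, adjusted p = 0.000311 over 4 comparisons). Any fold change between NMJ and xNMJ therefore depended on the scale chosen. With TMM the median log2 fold change of all tested genes was 0.00 at 10 months and -0.01 at 30 months. With plain library totals, an alternative chosen after seeing the data, it was 0.56 and 0.61. Fold changes below use TMM, which sets each gene against the median gene, unless library totals are named. On library totals the median of the 9 genes was 0.23 in place of -0.31 at 10 months, and -0.24 in place of -0.84 at 30 months.

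One library stood apart from its label. The library 30m xNMJ replicate 5 held 94.0 CPM of Chrne, the adult subunit of the synaptic acetylcholine receptor, while the other 7 libraries of its group held 0 to 0.240 CPM and 30m NMJ libraries 194 to 545 CPM. Its total of 13182475 and its average insert size of 130 were also the highest of its group. The library 10m NMJ replicate 8 had an average insert size of 52 in the unit of the labels, against 109 to 131 in the other 7. For the 9 genes, no call between the regions, the ages or in their interaction was changed by leaving out either library, and values without them are given for some genes.

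All 9 measured genes were detected in nearly every library. Reads were present in 32 of 32 libraries for 8 of them, and Tek had none in 1 library, 30m xNMJ replicate 2. Per transcript length, Egfl7 was the most abundant with a mean of 50.7 TPM (the transcript unit that scales counts by length and then to a fixed sum per library, SD 20.7, n = 32), followed by the pericyte marker Rgs5 with 29.6 TPM (SD 11.7). Flt1 had 13.1 TPM (SD 4.39) and Cdh5 11.6 TPM (SD 6.61). Vwf had 8.08 TPM (SD 6.77), Kdr 4.44 TPM (SD 2.00), Tie1 3.14 TPM (SD 1.87), Pecam1 2.74 TPM (SD 2.11) and Tek 2.31 TPM (SD 1.86). Between Rgs5 and Flt1 the ranges of mean ± SD did not overlap, while every other pair of neighbours in this order overlapped. Tek, Pecam1 and Tie1, the least abundant, lay within each other's spread. The order was not the same in every group. In 30m NMJ the mean of Vwf, 15.1 TPM (SD 7.26), was above those of Flt1, 11.3 TPM (SD 2.83), and Cdh5, 8.24 TPM (SD 3.44), within their spread, and in 30m xNMJ that of Pecam1, 3.60 TPM, was above those of Kdr, 3.22 TPM, and Tie1, 2.73 TPM.

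**Figure D1:**
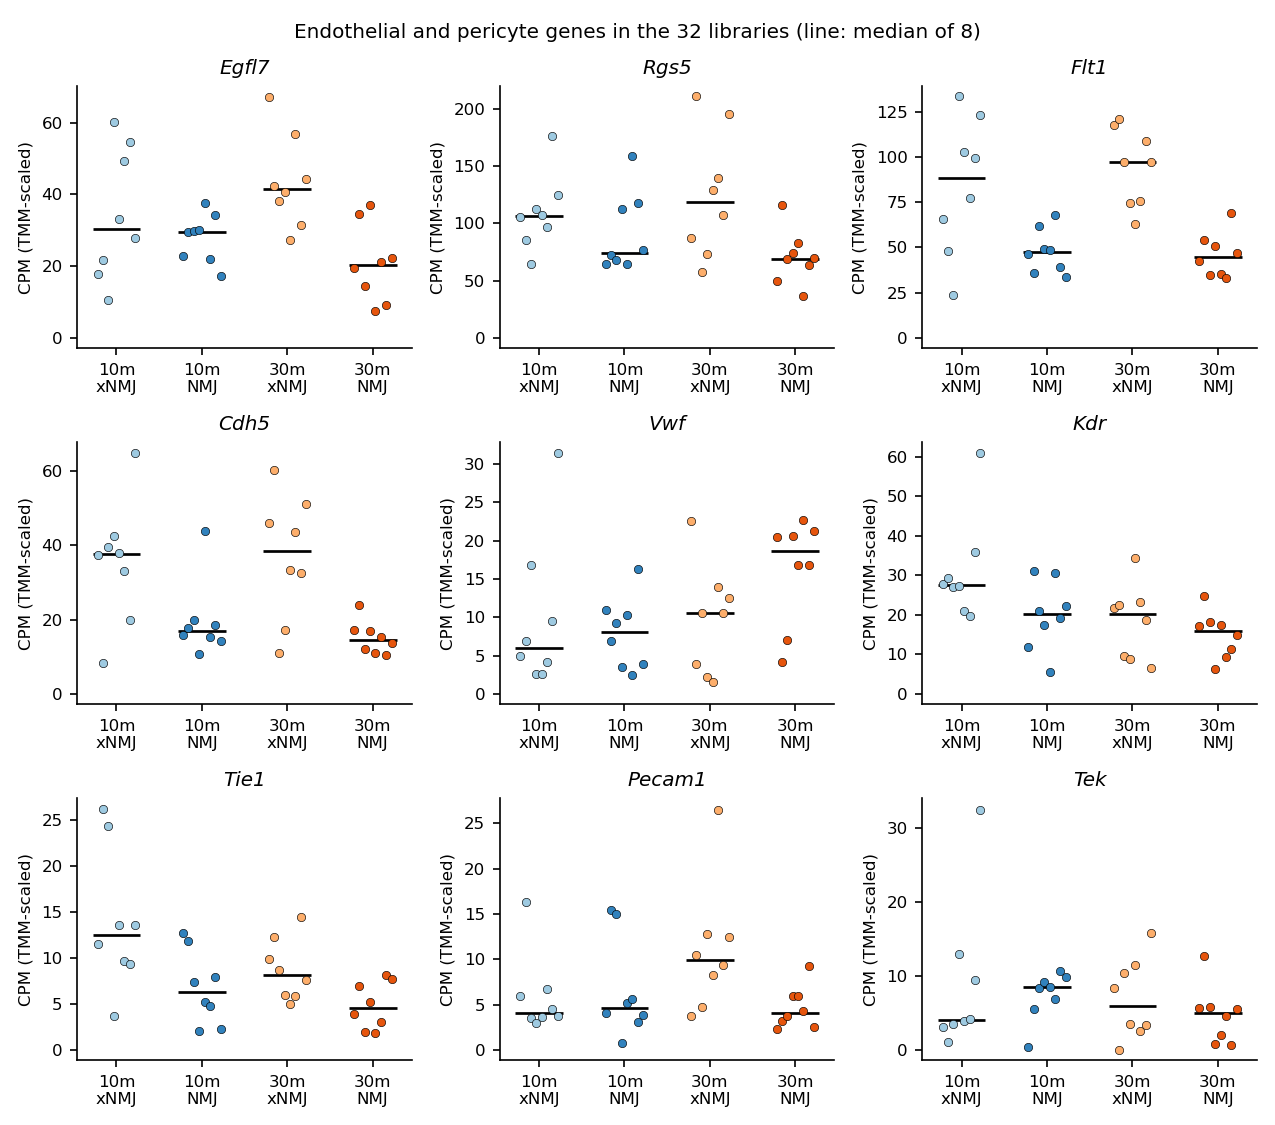
Each panel shows 1 gene, each point the CPM of 1 library (linear axis, TMM-scaled) and each line the median of the 8 libraries of a group, with xNMJ in light and NMJ in dark color, blue for 10 months and orange for 30 months. Flt1 and Cdh5 sit lower in NMJ than in xNMJ at both ages with overlap between groups, and Vwf has its highest median, 18.7 CPM, in 30m NMJ.

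The comparison of NMJ with xNMJ at 10 months addressed how capillary RNA is distributed around the synapse in adult muscle. Relative to the median gene, Flt1 was lower at the NMJ and the other 8 genes did not pass the test. The share called, 1 of 9 genes, was thus close to the background, with 11.5% of all tested genes called in either direction and 5.05% called lower and 6.5% called higher. Flt1 had 23.6, 88.2 and 134 CPM as the lowest, median and highest of the 8 libraries of 10m xNMJ, and 33.9, 47.5 and 67.7 CPM in 10m NMJ. All 8 NMJ libraries lay under the xNMJ median, but the groups overlapped, with xNMJ replicates 1, 2 and 3 (65.6, 48.1 and 23.6 CPM) under the highest NMJ library. The log2 fold change was -0.82 (SE 0.24, 95% CI -1.31 to -0.32), a fall to 0.567 of the xNMJ level (edgeR quasi-likelihood test, Benjamini-Hochberg adjusted p = 0.023). On library totals the change of Flt1 was -0.27 with an adjusted p of 0.48, and on log2(TPM + 1) -0.26 with 0.50. Leaving out 10m xNMJ replicate 4 or 8 raised the adjusted p to 0.063 or 0.058, and leaving out 10m NMJ replicate 8 gave 0.0495. It was also lost without the filter on low counts (0.061) and with a model of only the groups compared (0.067). With the replicate number as a block Flt1 was lost too, and Tie1 was called lower in its place.

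The other 8 genes did not pass at 10 months. Cdh5 had 8.28, 37.6 and 65.0 CPM (lowest, median, highest) in 10m xNMJ and 10.8, 16.9 and 43.8 CPM in 10m NMJ. Of its NMJ libraries, 7 of 8 lay under the xNMJ median, and the exception was replicate 5 with the highest value. Its log2 fold change of -0.86 (SE 0.33) had an adjusted p of 0.096, which became 0.018 without 10m NMJ replicate 5 and 0.030 without 10m xNMJ replicate 2. Tie1 had a log2 fold change of -1.04 (SE 0.42, adjusted p = 0.11) with 7 of 8 NMJ libraries under the xNMJ median, and Kdr one of -0.64 (SE 0.34, adjusted p = 0.26). For Tek, with medians of 4.01 CPM in xNMJ and 8.45 CPM in NMJ but a mean log2 fold change of -0.25 (SE 0.68), the xNMJ mean rested on 32.4 CPM in 10m xNMJ replicate 8. Without that library its value was 0.44 (adjusted p = 0.75). Pecam1 (0.16, SE 0.48), Vwf (-0.31, SE 0.53), Egfl7 (-0.31, SE 0.31) and Rgs5 (-0.25, SE 0.26) had adjusted p-values between 0.61 and 0.89. The signs of Vwf and Pecam1 turned with single libraries, since Vwf had 0.23 without 10m xNMJ replicate 8, and Pecam1 had -0.14 without 10m NMJ replicate 2 and -0.12 without 10m NMJ replicate 3. On library totals the values of Tek, Vwf, Egfl7 and Rgs5 were above 0, so that 4 of 9 genes were below 0 there in place of 8 of 9. Leaving out 10m NMJ replicate 8 or 30m xNMJ replicate 5 changed no call in this comparison.

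At 30 months the same comparison placed 4 of 9 genes lower at the NMJ and none higher, against 9.26% of all tested genes called in either direction and 4.25% called lower, with 5% called higher. The 4 genes were Cdh5, Flt1, Egfl7 and Rgs5, of which Rgs5 is the pericyte marker and the other 3 are endothelial. For 6 of the 9 genes, Cdh5, Pecam1, Flt1, Tie1, Egfl7 and Rgs5, all 8 NMJ libraries lay under the xNMJ median. No gene's groups were free of overlap at either age, while 1.19% of tested genes at 10 months and 0.5% at 30 months were lower at the NMJ without overlap, and 2.22% and 1.96% were higher.

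Cdh5 had 10.9, 38.5 and 60.4 CPM (lowest, median, highest) in 30m xNMJ and 10.5, 14.4 and 23.8 CPM in 30m NMJ. The xNMJ libraries spread widely, with replicates 3 and 4 inside the NMJ range and the other 6 above it. Its log2 fold change was -1.29 (SE 0.34, 95% CI -1.98 to -0.61, edgeR adjusted p = 0.0094). Flt1 had 63.0, 97.3 and 121 CPM in 30m xNMJ and 33.1, 44.7 and 69.1 CPM in 30m NMJ. Its groups were close to separate, with only the lowest xNMJ library, replicate 5, under the highest NMJ library. That xNMJ library is the one that carried synaptic RNA. The log2 fold change of Flt1 was -1.04 (SE 0.25, 95% CI -1.54 to -0.54, edgeR adjusted p = 0.0041).

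Egfl7 had 27.4, 41.6 and 67.2 CPM in 30m xNMJ and 7.63, 20.4 and 37.2 CPM in 30m NMJ. Its log2 fold change was -1.07 (SE 0.32, 95% CI -1.71 to -0.42, edgeR adjusted p = 0.027). Rgs5 had 58.0, 118 and 211 CPM in 30m xNMJ and 36.9, 69.2 and 116 CPM in 30m NMJ. The highest xNMJ values came from replicates 2 and 8, and the other 6 xNMJ libraries held at most 140 CPM. The log2 fold change of Rgs5 was -0.83 (SE 0.26, 95% CI -1.35 to -0.31, edgeR adjusted p = 0.034).

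The calls of Cdh5 and Flt1 at 30 months held in all 32 fits that each left out 1 library, with adjusted p-values up to 0.027 and 0.011. Egfl7 was called in 27 of these 32 fits and Rgs5 in 25. For Egfl7 the adjusted p rose to 0.063 without 30m xNMJ replicate 1, 0.051 without 30m xNMJ replicate 6, and 0.057, 0.054 and 0.057 without 30m NMJ replicate 3, 5 and 7. For Rgs5 it rose to 0.098, 0.053 and 0.083 without 30m xNMJ replicate 2, 6 and 8, and to 0.069, 0.055, 0.075 and 0.056 without 30m NMJ replicate 1, 3, 6 and 7. Without the filter on low counts the adjusted p was 0.061 for Egfl7 and 0.078 for Rgs5, and with only the groups compared that of Rgs5 was 0.066. Without 30m xNMJ replicate 5, the library with synaptic RNA, the log2 fold changes were -1.31 for Cdh5, -1.11 for Flt1, -1.14 for Egfl7 and -0.83 for Rgs5, and all 4 stayed under the threshold. On library totals all 4 were still below 0, with -0.68 for Cdh5, -0.41 for Flt1, -0.39 for Egfl7 and -0.24 for Rgs5, but 0 of 9 genes were called and the lowest adjusted p of these 4 was 0.16. With limma on log2(TPM + 1) these 4 calls were lost as well, with adjusted p-values of 0.23 for Cdh5, 0.21 for Flt1, 0.18 for Egfl7 and 0.68 for Rgs5. On library totals the values of Kdr, Tek and Vwf were above 0, so that 6 of 9 genes were below 0 in place of 8 of 9.

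Among the 5 genes without a call, Vwf stood out by its sign. Its libraries had 1.505, 10.6 and 22.6 CPM in 30m xNMJ and 4.22, 18.7 and 22.7 CPM in 30m NMJ, with 6 of 8 NMJ libraries above the xNMJ median. The log2 fold change was 0.74 (SE 0.53, edgeR adjusted p = 0.47). With limma on log2(TPM + 1) it was 1.53 and passed the threshold (adjusted p = 0.025), while the median of all tested genes on that scale was 0.49. Pecam1 had 3.70, 9.93 and 26.5 CPM in 30m xNMJ and 2.29, 4.05 and 9.27 CPM in 30m NMJ. Its log2 fold change of -1.23 (SE 0.49) had an adjusted p of 0.12, and the highest xNMJ value came from replicate 6. Tie1 (-0.84, SE 0.42), Tek (-0.57, SE 0.68) and Kdr (-0.29, SE 0.34) had adjusted p-values of 0.25, 0.71 and 0.69. Without 30m xNMJ replicate 5 the value of Kdr was -0.09 (edgeR adjusted p = 0.90). That of Tek ranged from -0.96 to -0.28 over the 32 fits without 1 library.

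**Figure D2:**
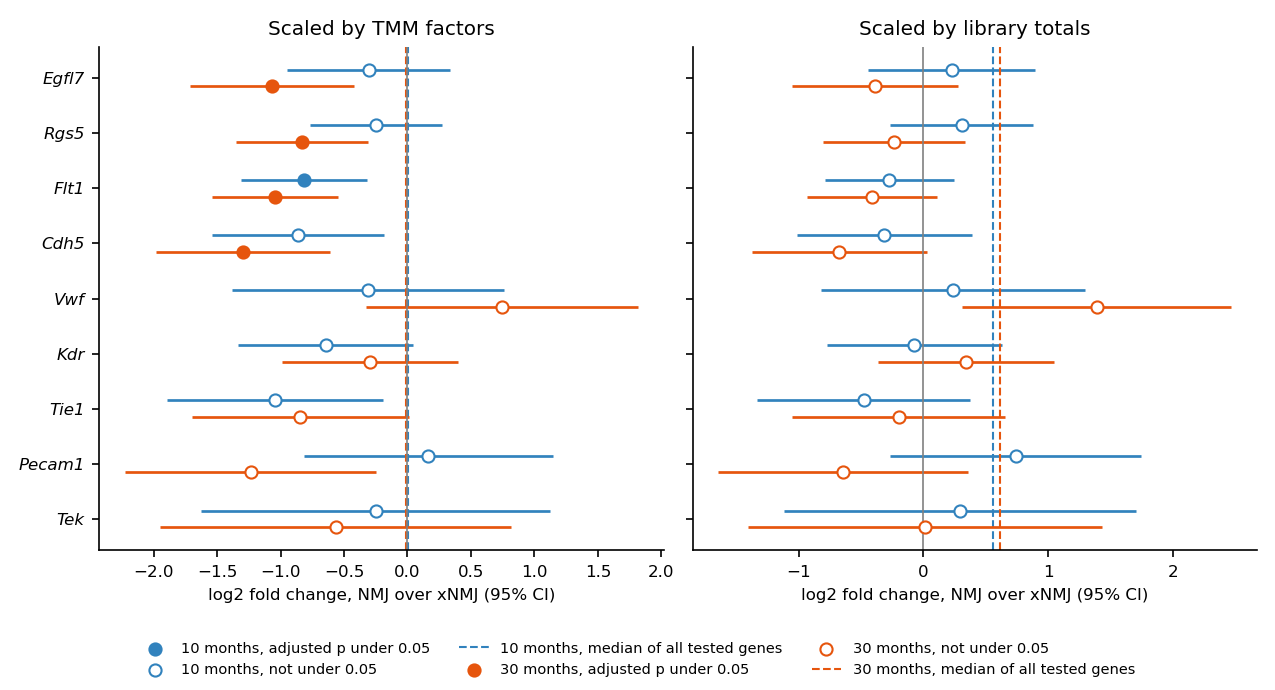
Points give the log2 fold change of NMJ over xNMJ for each gene at 10 months (blue) and 30 months (orange) with its 95% CI, filled where the edgeR adjusted p was under 0.05, and dashed lines give the median of all tested genes. Scaled by TMM (left) 8 of 9 genes lie below 0 at both ages, while scaled by library totals (right) the median gene lies at 0.56 and 0.61 and no gene passes.

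The summed level of the 9 genes gives the same contrast in 1 number per library. On the TMM scale it was 214, 313 and 483 CPM (lowest, median, highest) in 10m xNMJ and 184, 232 and 314 CPM in 10m NMJ. In 30m xNMJ it was 239, 361 and 484 CPM, and in 30m NMJ 150, 190 and 280 CPM. As a share of all counts, the 9 genes took 277 ± 84.4 CPM on plain library totals (mean ± SD, n = 8) in 10m xNMJ and 288 ± 61.5 in 10m NMJ. At 30 months the shares were 287 ± 89.3 in xNMJ and 246 ± 57.8 in NMJ. The difference seen on the TMM scale was thus small against the spread when every count of the library was the denominator.

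Age was compared within each region to ask whether the capillary genes of the old muscle differ from those of the adult. In NMJ, 0 of 9 genes passed the test, as did 0% of all tested genes (edgeR). Of all tested genes, 372 had an unadjusted p under 0.05, none of them among the 9, and DESeq2 also called 0. The main model takes 1 estimate of spread for all 4 groups. With a model of only the NMJ libraries, 780 genes had an unadjusted p under 0.05 and 0 were called. Of the 9 genes, 8 had a log2 fold change below 0, from -0.06 for Flt1 (SE 0.24) to -0.66 for Tek (SE 0.68), with a median of -0.42 beside 0.02 for all tested genes. Vwf was the exception, with 2.44, 8.10 and 16.2 CPM in 10m NMJ and 4.22, 18.7 and 22.7 CPM in 30m NMJ. Its log2 fold change was 1.03 (SE 0.53, 95% CI -0.04 to 2.10, edgeR quasi-likelihood adjusted p = 0.9998), with 6 of 8 old libraries above the adult median. Without 10m NMJ replicate 8 this value was 0.93. Over the 32 fits without 1 library, Flt1 ranged from -0.17 to 0.03, and no other gene turned its sign. Cdh5 ranged from -0.50 to -0.09 and Tek from -1.06 to -0.50 in these fits.

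In xNMJ, 0 of 9 genes passed, beside 0.0429% of all tested genes, and 1 of the 9 had an unadjusted p under 0.05, beside 1322 of all 13990 tested genes. With a model of only the xNMJ libraries, 803 genes had an unadjusted p under 0.05 and 0 were called. DESeq2 called 84 genes, none of them among the 9. Of the 9, the gene with an unadjusted p under 0.05 in the main model was Kdr. It had 19.7, 27.4 and 60.9 CPM in 10m xNMJ and 6.47, 20.3 and 34.4 CPM in 30m xNMJ. Of the 30m libraries, 7 of 8 lay under the 10m median, and the log2 fold change was -0.77 (SE 0.34, 95% CI -1.46 to -0.07, edgeR adjusted p = 0.46). Without 30m xNMJ replicate 5 it was -0.97 (adjusted p = 0.30). Pecam1 had the opposite sign, with 7 of 8 old libraries above the adult median and a log2 fold change of 0.90 (SE 0.49, edgeR adjusted p = 0.59). For the remaining 7 genes the values lay between -0.68 for Tie1 (SE 0.42) and 0.34 for Egfl7 (SE 0.32). Except for Kdr in xNMJ, the intervals leave room for changes in either direction. For Flt1, the most precise of the genes, the 95% CI of the age effect was -0.56 to 0.43 in NMJ and -0.33 to 0.66 in xNMJ.

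A difference between 4 calls at 30 months and 1 at 10 months does not by itself show that the region effect changed with age, so the interaction of age and region was tested. Here 0 of 9 genes passed, beside 0% of all tested genes in edgeR. At an unadjusted p under 0.05 there were 708 genes, 1 of them among the 9, and DESeq2 called 10 genes, none of them among the 9. Pecam1 had the largest value, -1.40 (SE 0.68, 95% CI -2.79 to -0.01, edgeR adjusted p = 0.97), with -1.45 without 30m xNMJ replicate 5 and -1.48 (adjusted p = 0.98) without 10m NMJ replicate 8. For Egfl7 it was -0.76 (SE 0.44, adjusted p = 0.9999), for Rgs5 -0.58 (SE 0.36, adjusted p = 0.9999) and for Vwf 1.05 (SE 0.74, adjusted p = 0.9999). Over the 32 fits without 1 library the value of Vwf ranged from 0.51 to 1.36. Flt1 and Cdh5, whose 30-month calls held in all 32 fits without 1 library, had interactions of -0.22 (SE 0.34) and -0.43 (SE 0.47).

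Other genes of the vessel wall were described by lists of textbook markers. In the list of other endothelial genes, 30 of 32 genes were tested. It gave 0 genes higher and 1 lower at 10 months, with a median log2 fold change of -0.55, and 0 in either direction at 30 months, with a median of -0.31 and 6 of the 30 genes at an unadjusted p under 0.05, beside 2898 of all 13990 tested genes. The medians of all tested genes were 0.00 and -0.01. The gene called was Adgrl4, an adhesion receptor of endothelial cells, with a log2 fold change of -1.995 (SE 0.60, adjusted p = 0.024). It did not pass on library totals (-1.49, adjusted p = 0.067) or without 10m xNMJ replicate 5 (0.058) or 7 (0.079). With the replicate number as a block it did not pass either (-2.01, adjusted p = 0.067). At 30 months the smallest p belonged to Fli1, an ETS transcription factor, with -1.27 (SE 0.44, adjusted p = 0.065), and its adjusted p was 0.050 without 30m NMJ replicate 3 and 0.025 without 30m xNMJ replicate 5. Ly6c1, a surface protein of capillary endothelium, was the most abundant of the list with 94.1 TPM. On library totals the medians of this list were 0.02 and 0.35, beside 0.56 and 0.61 for all tested genes. On that scale 2 of the 30 genes were called higher at 10 months, beside 2659 of all 13990 tested genes.

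Among the vascular lists, genes of exchange across the capillary wall had the smallest p-values, and those called were lower at the NMJ. Of 16 tested genes, 3 were lower at 10 months (Lpl, Cd36 and Aqp1), 5 at 30 months (also Timp4 and Fabp4), and 0 were higher at either age. Lipoprotein lipase (Lpl), which is made by fibers and works on the capillary surface, had 699, 1035 and 1566 CPM (lowest, median, highest) in 10m xNMJ and 219, 274 and 513 CPM in 10m NMJ. The groups did not overlap, and the log2 fold change was -1.83 (SE 0.23, edgeR adjusted p = 7.4e-07). At 30 months Lpl had 386, 768 and 1131 CPM in xNMJ and 126, 213 and 429 CPM in NMJ, with slight overlap and a log2 fold change of -1.69 (SE 0.23, edgeR adjusted p = 4.4e-06). CD36 (Cd36), a fatty acid carrier that both capillaries and fibers have, fell by 1.38 (SE 0.24) at 10 months and by 1.48 (SE 0.24) at 30 months on the log2 scale, with edgeR adjusted p-values of 0.00013 and 7.3e-05. Both genes passed on library totals as well, Lpl with -1.27 and -1.06 and Cd36 with -0.81 and -0.84, and in all 32 fits without 1 library. Aquaporin-1 (Aqp1), the water channel of capillary endothelium, was called on TMM with -0.87 (SE 0.28, adjusted p = 0.039) and -1.36 (SE 0.29, adjusted p = 0.0016). On library totals its values were -0.31 and -0.71 with adjusted p-values of 0.48 and 0.081. The 10-month call of Aqp1 was also lost without the filter on low counts (0.086), with DESeq2 size factors (0.056), with insert size as a covariate (0.084) and on log2(TPM + 1) (0.28), and was held in 22 of 32 fits without 1 library. Its adjusted p was 0.053 to 0.081 without 10m NMJ replicate 1, 2, 4, 5 or 8 and without 10m xNMJ replicate 1, 2, 3, 4 or 6. Timp4, an inhibitor of matrix proteases, had -1.21 at 30 months (SE 0.39, adjusted p = 0.043), also called in 22 of 32 such fits. Its adjusted p was 0.054 to 0.090 without 30m NMJ replicate 1, 2, 3, 6 or 8 and without 30m xNMJ replicate 1, 2, 4, 5 or 8, 0.29 on library totals, 0.075 without the filter and 0.40 on log2(TPM + 1). Fabp4, a fatty acid binding protein of capillaries and fat cells and the most abundant gene of the list with 258 TPM, had -0.51 (SE 0.28, adjusted p = 0.29) at 10 months and -1.02 (SE 0.29, adjusted p = 0.016) at 30 months. Of the 5 genes only Lpl and Cd36 were called on library totals, where the medians of the list were 0.02 at both ages.

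Pericyte and smooth muscle genes held calls in both directions, most of them higher at the NMJ. Of 18 tested genes, 3 were higher and 0 lower at 10 months, and 2 were higher and 1 lower at 30 months, with median log2 fold changes of -0.32 and 0.29 on TMM and of 0.23 and 0.86 on library totals. NG2 (Cspg4), a proteoglycan of pericytes that glia also make, had 1.34, 4.76 and 14.2 CPM in 10m xNMJ and 7.61, 24.2 and 51.0 CPM in 10m NMJ. Its log2 fold change was 1.92 (SE 0.56, adjusted p = 0.019) at 10 months and 1.79 (SE 0.56, adjusted p = 0.036) at 30 months. The 10-month call was lost without 10m NMJ replicate 5 (0.054), and the 30-month call (0.052 to 0.079) without 30m NMJ replicate 2, 3 or 6 or 30m xNMJ replicate 1, 3, 4, 5, 7 or 8 and with only the groups compared (0.068). Steap4, a metal reductase found in pericytes, rose by 1.04 (SE 0.32, adjusted p = 0.029) and 1.36 (SE 0.33, adjusted p = 0.0050) on the log2 scale. At 10 months its adjusted p was 0.053 to 0.078 without 10m NMJ replicate 2, 3 or 4 or 10m xNMJ replicate 2 or 7 and 0.079 with only the groups compared, and the 30-month call held in all 32 such fits. Mcam, an adhesion molecule of the vessel wall, was called at 10 months (2.21, SE 0.65, adjusted p = 0.020), but not with insert size as a covariate (1.80, adjusted p = 0.11). All of these calls of higher expression also held on library totals. That scale lifts the median of all tested genes to 0.56 at 10 months and 0.61 at 30 months. Holding there is thus a weak check for a gene called higher. Abcc9, a subunit of a potassium channel of pericytes and muscle, was lower at 30 months (-0.70, SE 0.21, adjusted p = 0.025), with -0.11 and an adjusted p of 0.76 on library totals, and its adjusted p was 0.055, 0.059 and 0.077 without 30m NMJ replicate 3 or 4 or 30m xNMJ replicate 8. It also missed the threshold without the filter (0.075), with insert size as a covariate (0.058), with only the groups compared (0.063) and on log2(TPM + 1) (0.70). Higd1b, a mitochondrial protein of pericytes, was the most abundant of the list with 31.3 TPM. The list of artery, vein and lymphatic genes had 9 tested genes of 16, and only Nr2f2 was called. Nr2f2, a transcription factor of veins and the most abundant gene of the list with 10.7 TPM, had 1.26 (SE 0.34, adjusted p = 0.010) at 10 months. At 30 months it had 0.82 (SE 0.33, adjusted p = 0.13). There it passed only on library totals (1.46, adjusted p = 0.0028), the scale that lifts the median gene.

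**Figure D3:**
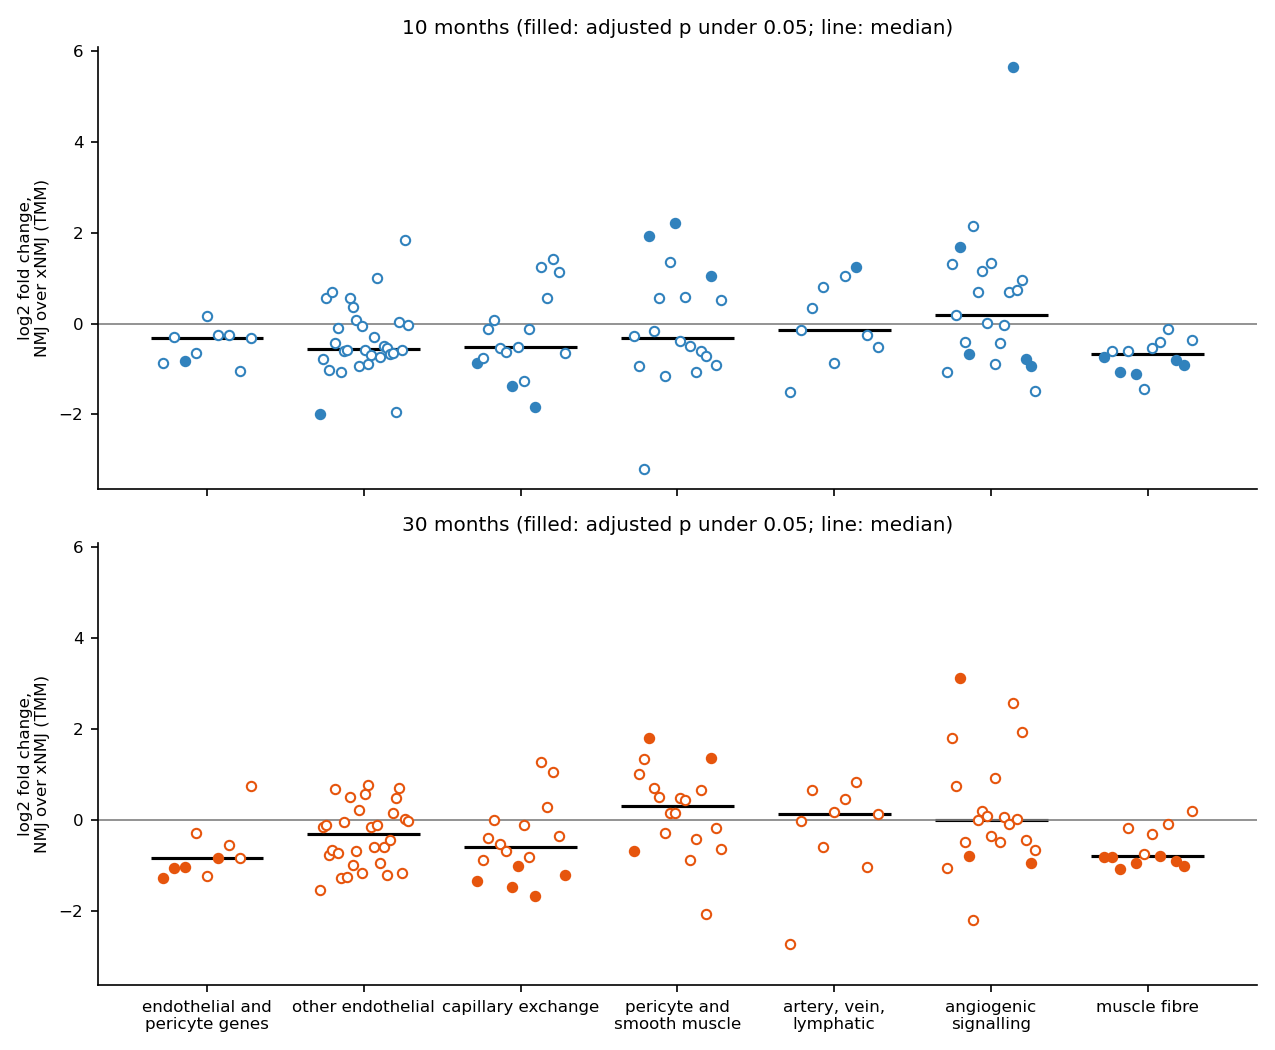
Each point is the log2 fold change of NMJ over xNMJ of 1 tested gene (TMM scale), filled where the edgeR adjusted p was under 0.05, with a line at the median of each list, at 10 months (top) and 30 months (bottom). The medians of the 9 endothelial and pericyte genes, -0.31 and -0.84 (0.23 and -0.24 on library totals), stand beside -0.68 and -0.80 for muscle fiber genes, and pericyte and smooth muscle genes have medians of -0.32 and 0.29 (0.23 and 0.86 on library totals). The highest point at 10 months is Pgf, which had 1 count in the 8 xNMJ libraries, so that its fitted position carries no size.

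Signals that act on the capillary receptors were taken from a list of angiogenic genes, of which 21 of 26 were tested. At 10 months 2 were higher and 3 lower, at 30 months 1 was higher and 2 lower, and the medians were 0.18 and 0.00, or 0.72 and 0.67 on library totals. Vegfb, a ligand of Flt1 made by muscle fibers and the most abundant gene of the list with 141 TPM, was lower at both ages, with -0.94 and -0.96 (SE 0.21 and adjusted p = 0.0024 each). Vegfa, the main ligand of Kdr, changed at 10 months by -0.79 on the log2 scale (SE 0.23, adjusted p = 0.021), which rose to an adjusted p of 0.068 without 10m xNMJ replicate 1, 0.059 without the filter and 0.096 with insert size as a covariate. Epas1, the oxygen-sensing factor HIF-2α, changed by -0.66 (SE 0.19, adjusted p = 0.016) and -0.80 (SE 0.19, adjusted p = 0.0041). On library totals none of these 3 passed, with -0.39 and -0.33 for Vegfb, -0.23 for Vegfa and -0.19 for Epas1 at 30 months. Col18a1, the basement membrane collagen that yields endostatin, was higher at both ages, with 1.69 (SE 0.44, adjusted p = 0.0078) and 3.13 (SE 0.47, adjusted p = 2.0e-05). It was also called higher on library totals, a scale that lifts the median gene. Pgf, another ligand of Flt1, was called higher at 10 months on few reads, with 1 count in the 8 xNMJ libraries together. Its highest value in NMJ was 8.70 CPM, and 4 of 8 libraries there had none. It did not pass with insert size as a covariate (0.091), on log2(TPM + 1) (0.083) or with the replicate number as a block (0.083). In the age comparisons and the interaction, the genes of these 5 vascular lists had edgeR adjusted p-values of at least 0.26.

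Some fiber and non-vascular genes were also called between the regions. Of 12 muscle fiber genes, 0 were higher and 5 lower at 10 months and 0 higher and 7 lower at 30 months, with medians of -0.68 and -0.80 on the TMM scale. Their summed level had medians of 151151 CPM in xNMJ and 99740 CPM in NMJ at 10 months, and 163144 and 92165 CPM at 30 months, with Mylpf, a myosin light chain, as the most abundant gene at 29642 TPM. On library totals the fiber medians were -0.13 and -0.17, with 0 genes called lower and 1 higher at 30 months. Of all 13990 tested genes, 76 were called lower and 2687 higher there. Creatine kinase (Ckm), for example, had -1.08 at both ages on TMM (SE 0.23 each, adjusted p = 0.0017 and 0.0020), and -0.53 and -0.43 on library totals. The part of the fiber share in the values of the capillary genes was not tested.

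The Schwann cell, fibroblast and macrophage genes that passed the test were higher at the NMJ. Of 10 Schwann cell genes, 9 were higher at each age, and their summed level had medians of 21.2 and 352 CPM in xNMJ and NMJ at 10 months and 29.6 and 295 CPM at 30 months, with Pmp22, a myelin protein, as the most abundant gene. The defining glial gene S100b was at 0 in 4 of 8 libraries of 10m xNMJ and 5 of 8 of 30m xNMJ. Of 10 fibroblast genes, 6 and 5 were higher at 10 and 30 months, with medians of the sum, in the same order, of 319, 1578, 281 and 1385 CPM. Dcn, decorin, was the most abundant, with log2 fold changes of 2.88 (SE 0.28, adjusted p = 5.1e-09) and 2.78 (SE 0.28, adjusted p = 2.0e-08). Macrophage and leukocyte genes had 6 and 5 of 10 higher, with medians of the sum of 31.4, 296, 36.3 and 262 CPM and Lyz2, lysozyme, as the most abundant, and Adgre1 was at 0 in 4 of 8 libraries of 10m xNMJ and all 8 of 30m xNMJ. Synaptic genes of the fiber had 8 higher and 1 lower of 11 at each age, with medians of the sum of 4467, 2782, 5244 and 3049 CPM. Chrne was at 0 in 6 of 8 libraries of each xNMJ group, and Lrp4, a synaptic receptor, was both the gene called lower and the most abundant. Sdc4 was the 1 gene called of 4 tested muscle stem cell genes and the most abundant, and was higher at both ages, with medians of the sum of 40.0, 70.0, 25.3 and 55.4 CPM. Plin1, a coat protein of lipid droplets, was the 1 gene called of 3 tested fat cell genes and was lower at both ages on TMM but not on library totals. The fat list had medians of the sum of 14.9, 5.604, 19.3 and 11.5 CPM with Cfd as the most abundant, and the fat hormone gene Adipoq was at 0 in all 8 libraries of 10m xNMJ, 7 of 10m NMJ, 7 of 30m xNMJ and 5 of 30m NMJ. In the age comparisons of these lists Etv5, a synaptic transcription factor, was the 1 gene called, higher in 30m than 10m xNMJ (4.61, SE 0.87, adjusted p = 0.031), a call held in 24 of 32 fits without 1 library. Without 30m xNMJ replicate 5 its value was 2.67 (adjusted p = 0.10), and its adjusted p was 0.057 to 0.086 without 30m xNMJ replicate 2 or 10m xNMJ replicate 1, 2, 3, 4, 5 or 6. It was 0.13 with insert size as a covariate, 0.79 with only the groups compared and 0.51 on log2(TPM + 1). Whether these cells account for any value of the capillary genes was not tested.

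Blood within the vessels contributes hemoglobin RNA to such regions. Of 7 tested blood genes of 12, 1 was higher at 10 months, Pf4 (3.99, SE 1.02, adjusted p = 0.0067), listed here as a platelet gene. At that age 6 of the 7 had values below 0, and which cells carried the Pf4 RNA was not tested. At 30 months 0 passed, and the median was -1.21. Hbb-bs, a beta globin gene, had 194, 1193 and 5632 CPM in 30m xNMJ and 220, 603 and 1561 CPM in 30m NMJ (log2 fold change -1.26, SE 0.45, adjusted p = 0.079). The summed blood level, led by Hba-a2 with 2059 TPM, had its highest value, 19519 CPM, in 30m xNMJ replicate 2. The same library had the highest sum of the 9 capillary genes in its group, 484 CPM, and without it the 30-month values of Cdh5, Flt1 and Egfl7 were -1.16, -0.98 and -1.07 with adjusted p-values of 0.027, 0.0093 and 0.036, and that of Rgs5 was -0.68 with 0.098.

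**Figure D4:**
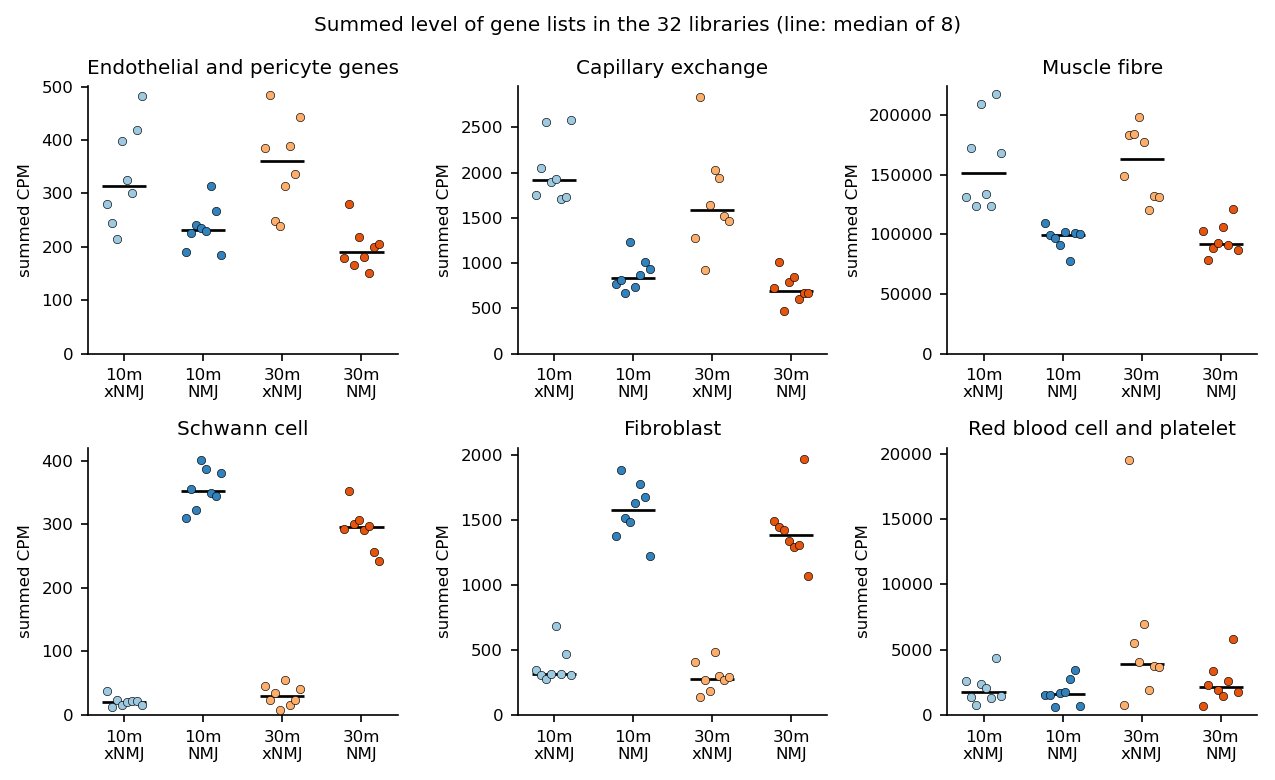
Each point is the summed CPM (TMM-scaled, linear axis) of the measured genes of 1 list in 1 library, with a line at the median of 8. The 9 capillary genes, the exchange genes and the fiber genes have lower medians in NMJ at both ages, Schwann cell and fibroblast genes have higher ones, and 30m xNMJ replicate 2 has 19519 CPM of blood genes.

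Among libraries of the same group, the 9 genes varied largely on their own. The pooled SD of log2 CPM within groups was 0.51 for Flt1 and 0.52 for Rgs5, 0.65 for Egfl7, 0.70 for Kdr and Cdh5, 0.80 for Tie1, 0.91 for Pecam1, 1.11 for Vwf and 1.54 for Tek. Over all 32 libraries, across groups, the highest had 5.66 times the CPM of the lowest for Flt1 and 32.5 times for Pecam1. For Tek no ratio is given, since 1 library had no reads. After removal of group means, Pearson's r of log2 CPM over the 32 libraries had a median of 0.03 over the 36 pairs of genes, with 20 pairs above 0 and a range of -0.39 to 0.51. The highest values were those of Flt1 with Egfl7 (0.51), Flt1 with Rgs5 (0.40), Tie1 with Vwf (0.39), Kdr with Rgs5 (0.37) and Pecam1 with Tie1 (0.31). Tek had the lowest, with Tie1 (-0.39) and Pecam1 (-0.37). These are descriptions over libraries that share scaling and depth, and low counts limit what an r can show. Pecam1, Tek and Tie1 had group medians of 19.5 to 96.5 counts, and Vwf had 26 in 10m xNMJ and 46 in 30m xNMJ.

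**Figure D5:**
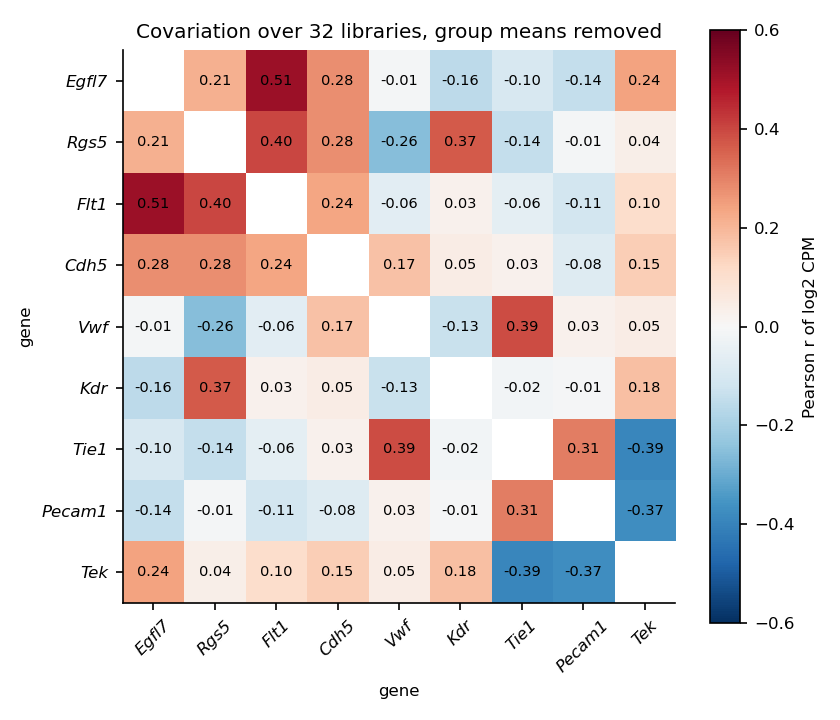
Each cell gives Pearson's r between the log2 CPM of 2 genes over the 32 libraries after removal of group means, from blue (below 0) to red (above 0). Flt1, Egfl7, Rgs5 and Cdh5 have values from 0.21 to 0.51 among themselves, while the other pairs lie between -0.39 and 0.39.

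The promoters of Flt1 and Egfl7, chosen as the pair with the highest r after the values were seen, are shown with matches to an ETS-type motif, because ETS transcription factors control many endothelial genes. The motif searched was AGGAAG or its reverse complement CTTCCT, on both strands, in RefSeq windows (GRCm38.p6) from 250 bases before to 50 bases after each start site. The windows held entries for 6 of the 9 measured genes, and 3 of these 6, Flt1, Egfl7 and Tie1, had a match, while those of Rgs5, Tek and Kdr had none. Of all 32851 windows 35.4% held a match, as did at least 1 window of 38.4% of all 27025 genes. Flt1 on the minus strand of chromosome 5 had matches 129 and 53 bases before its start, at chr5:147726123-147726152 and chr5:147726047-147726076. Egfl7 on the plus strand of chromosome 2 had matches in 2 of its 3 windows, each before a start site inside the annotated gene. Those that read AGGAAG on the strand of the gene lay 89 and 80 bases before their start sites, at chr2:26580982-26581011 and chr2:26583773-26583802. Capitals mark the motif, and each line runs 5′ to 3′ on the strand of the gene.
Flt1, 129 bases before the start: cgcccctccgggAGGAAGaagagggtaggt
Flt1, 53 bases before the start: aggtgccggggtAGGAAGtgggctggggaa
Egfl7, 89 bases before the first start: tgggagacaaacAGGAAGgccatctctctg
Egfl7, 80 bases before the next start: gagaacacacacAGGAAGtccggcgggaag
A match describes letters only, and no binding was measured in these samples.

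The genes whose within-group variation was most like the mean of the 9 genes were Lrmp (Pearson's r = 0.66), Ptpn6 (0.64), Lmbr1l (0.64), Rad21 (0.63), Gm19265 (0.63), Sema3g (0.62), Actn1 (0.62), Ankrd13c (0.62), Acot8 (0.61) and Chd3 (0.60), over 32 libraries. Sema3g, an arterial semaphorin, was the only one of these 10 in a vascular list. The lowest were Chd9 (-0.68), Ranbp1 (-0.67), Arhgap19 (-0.65), Hacd1 (-0.64) and Ube2z (-0.64). Over the 13981 tested genes outside the 9, r ranged from -0.68 to 0.66 with 90% between -0.31 and 0.32. The named genes are the ends of this range, given as a description without a test against chance. The median r over all of these genes was 0.01. Among the vascular lists it was 0.21 for artery, vein and lymphatic genes, 0.10 for other endothelial genes, 0.10 for pericyte and smooth muscle genes, 0.09 for angiogenic genes, 0.03 for capillary exchange genes and 0.01 for blood genes. Non-vascular lists lay between -0.15 for muscle fiber genes and 0.14 for fibroblast genes, so that fibroblast genes were above most of the vascular lists.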

How the data were processed

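RNA of laser-captured regions was made into polyA-primed SMART-Seq v4 libraries and sequenced. Per the submitters' processing notes the authors used cutadapt 1.9.1, kallisto 0.43.1 and GRCm38. The authors deposited counts per gene from single-end reads without strand, in which a read shared by several genes is split among them, and TPM values. From these, genes with at least 1 CPM in at least 8 libraries were tested with edgeR 4.0.16 (R 4.3.3; TMM factors, 1 model of 4 groups of 8, quasi-likelihood test, Benjamini-Hochberg adjustment over all genes tested, threshold 0.05). CPM values use TMM-scaled totals, those of the filter plain totals, and log2 CPM a prior count of 2. Libraries were compared with exact two-sided permutation tests (scipy 1.17.1). Alternatives were DESeq2 1.42.0, DESeq2 size factors, no filter, limma 3.58.1 on log2(TPM + 1), only the groups compared, insert size as covariate, the replicate number as a block, leaving out each library, and library totals, the last chosen after seeing the data. The model was tested on simulated data.

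The genes and the 13 other lists were chosen with earlier results of these data known. Of each list and comparison, the rule names up to 4 genes called, by size of change among those with a mean of 1 CPM in a group, otherwise the gene with the smallest p, and the most abundant gene. For non-vascular lists only some of these are given. Other genes named were chosen after their values were seen. For likeness, the 10 highest and 5 lowest genes are named. Among gene names, 39 were shared by several identifiers, none of them in the lists. Intervals hold between these libraries only.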

Additional observations from a re-analysis of the deposited data

Results flagged for a closer look

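In 104 sets of 8 libraries (9 genes, 3 library measures and 14 summed lists over 4 groups), the gap between the most extreme library and its nearest neighbour was compared with the range of the set. In 16 sets the gap took more than 0.526 of the range, Dixon's 95% limit for 8 values. For normally spread values chance flags about 1 in 20 such sets. CPM and sums were taken on the linear scale, where that rate need not hold. All flags but that of insert size were at the highest end. Among the capillary genes, Cdh5 stood apart in 10m NMJ replicate 5 (43.8 CPM, next 19.9), the library without which the 10-month difference of Cdh5 passed the threshold. Pecam1 stood apart in 10m xNMJ replicate 2 (16.3 CPM, next 6.71) and 30m xNMJ replicate 6 (26.5 CPM, next 12.8). Kdr and Tek were both highest in 10m xNMJ replicate 8 (60.9 CPM, next 35.8, and 32.4 CPM, next 13.0), and Tek also in 30m NMJ replicate 2 (12.7 CPM, next 5.79). Among library measures, 10m NMJ replicate 8 had an average insert size of 52 (next 109), and 30m xNMJ replicate 5 and 30m NMJ replicate 5 had total counts of 13182475 and 16422527. Among summed lists, 30m xNMJ replicate 2 was highest for other endothelial genes (595 CPM, next 387), angiogenic genes (890 CPM, next 534) and blood genes (19519 CPM, next 6932). The others were Schwann cell genes in 10m xNMJ replicate 1 (38.3 CPM), fibroblast genes in 30m NMJ replicate 7 (1969 CPM), macrophage and leukocyte genes in 10m NMJ replicate 7 (549 CPM) and fat cell genes in 10m NMJ replicate 1 (22.8 CPM). The cause of these differences was not tested.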

How the results depend on the processing

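Region calls among the 9 genes depended on the scale. On library totals 0 genes were called at either age, in place of 1 at 10 months and 4 at 30 months. With limma on log2(TPM + 1) 0 were called at 10 months and 1 at 30 months, Vwf, which was higher. Without a filter on low counts there were 0 and 2 calls, and with only the groups compared 0 and 3. DESeq2, its size factors in edgeR and insert size as a covariate each called the same 1 and 4 genes. Where DESeq2 gave no adjusted p (Cnn1, interaction), no value was taken. Leaving out 1 library gave 0 to 2 calls at 10 months, 2 to 4 at 30 months and 0 to 0 for the ages and the interaction. Flt1 at 10 months had an adjusted p of 0.061 without the filter and 0.067 with only the groups compared. Over all genes tested, 909 were called higher and 706 lower at 10 months, and 700 and 595 at 30 months, against 2659 and 210, and 2687 and 76, on library totals. On plain total counts, depth at 10 months had an adjusted exact permutation p of 0.052. The cause of these shifts was not tested. Tek, Pecam1 and Tie1 had group medians of 19.5 to 96.5 counts, and Vwf had 26 in 10m xNMJ and 46 in 30m xNMJ.

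With the replicate number as a block, 1 gene was called at 10 months and 4 at 30 months, but at 10 months this was Tie1 (-1.09, adjusted p = 0.044) in place of Flt1 (-0.72, adjusted p = 0.081). Deviations of same-numbered libraries had a mean r of 0.089 at 10 months and 0.081 at 30 months. Their r was over 0.1 in 4 and 1 of 8 pairs. At 30 months that pair was number 5 (r = 0.37), whose xNMJ library is the one that carried synaptic RNA. For different numbers the mean r was lower, -0.013 and -0.011, with 4 and 2 of 56 pairs over 0.1. At each age 4 of 8 NMJ libraries correlated best with their own number. Whether equal numbers mark the same animal is not known from the labels. The main model did not take the numbers as pairs, because r was not over 0.1 in every pair.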

Other observations

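None of the age effects and interactions in the other vascular lists passed after adjustment over all genes, and for each list the gene with the smallest p is given by its log2 fold change at 30 against 10 months (edgeR, Benjamini-Hochberg adjusted p). In xNMJ these were Col18a1 (-1.50, SE 0.45, adjusted p = 0.26), the alpha globin gene Hba-a1 (1.58, SE 0.48, adjusted p = 0.26), the gap junction gene Gja1 (-0.96, SE 0.39, adjusted p = 0.41), Ly6c1 (0.72, SE 0.31, adjusted p = 0.44), Lpl (-0.52, SE 0.22, adjusted p = 0.44) and the arterial connexin gene Gja5 (2.23, SE 0.98, adjusted p = 0.45). In NMJ they were Aqp1 (-0.84, SE 0.28), the endothelial phosphatase gene Ptprb (-0.90, SE 0.32), Pdgfrb, a receptor of pericytes (0.96, SE 0.49), Notch1 (-0.89, SE 0.49), Gja5 (1.66, SE 0.89) and Hba-a2 (0.59, SE 0.45), each with an adjusted p of 0.9998. For the interaction of age and region they were Pf4 (-3.88, SE 1.31, adjusted p = 0.74), Hey1 (-4.35, SE 1.76, adjusted p = 0.84), Cnn1 (4.52, SE 1.83, adjusted p = 0.84), Kank3 (-1.35, SE 0.67, adjusted p = 0.98), Tcf15 (-1.51, SE 0.90, adjusted p = 0.9999) and Flt4 (-1.39, SE 1.34, adjusted p = 0.9999). Of 7 blood genes, 6 had an unadjusted p under 0.05 for age in xNMJ, and none passed after adjustment. Of all 13990 tested genes, 1322 had such a p, and 803 with a model of only the xNMJ libraries. In 30m xNMJ the summed level of the blood genes was 19519 CPM in replicate 2 and 6932 CPM in the next library.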
